A study of Mus musculus with 8 samples.

Results

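The transcripts of 10 genes that make and desaturate fatty acids were followed in cultured mouse forelimb buds exposed to a mixture of organophosphate esters (OPE), compounds used as flame retardants and plasticisers. The genes were Srebf1, Fasn, Acaca, Acly, Scd1, Scd2, Elovl6, Fads1, Fads2 and Me1, chosen by symbol. The rule uses no measured value, though the members were chosen with earlier results of these data known. Each symbol stood once in the authors' deposited table of 21692 genes, and all 10 were among the 15517 genes with enough reads to be tested. The buds came from CD1 mice, an outbred stock, at gestation day 13, and the labels give no genotype or transgene. They were cultured for 24 h with the vehicle DMSO (4 libraries, vehicle 1 to 4) or with the OPE mixture, modelled on Canadian house dust, at a dilution of 1 in 300000 (4 libraries, OPE 1 to 4). The vehicle was the only control. The sources used here do not give the solvent share, the composition of the mixture or the number of embryos behind a library, nor whether the replicates came from separate litters or cultures. The p-values therefore measure the spread between these libraries, part of which may be technical.

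Cells build fatty acids in the cytosol from acetyl-CoA. ATP citrate lyase (Acly) makes acetyl-CoA from citrate, acetyl-CoA carboxylase (Acaca) turns it into malonyl-CoA, and fatty acid synthase (Fasn) joins these units into palmitate with NADPH, part of which malic enzyme (Me1) supplies. Elovl6 lengthens palmitate to stearate, and the stearoyl-CoA desaturases Scd1 and Scd2 put the first double bond into these saturated chains. Fads1 and Fads2 act on another substrate, the polyunsaturated fatty acids that come from essential fatty acids in the diet or the medium. Srebf1 encodes SREBP1, a membrane-bound transcription factor that is cut free to switch on most of these genes, while its relative SREBP2, from Srebf2, mainly drives cholesterol synthesis. Growing tissue uses the products in membranes and lipid signals.

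The members lie at few places in the genome. In the deposited mm10 coordinates, Srebf1 (chr11:60199089-60222581), Acaca (chr11:84129672-84401651), Acly (chr11:100476353-100528000) and Fasn (chr11:120805940-120824178) are on chromosome 11. Fads2 (chr19:10064164-10101503), Fads1 (chr19:10182888-10196870), Scd2 (chr19:44293676-44306864) and Scd1 (chr19:44394451-44407709) are on chromosome 19. Elovl6 (chr3:129532386-129638495) and Me1 (chr9:86581371-86695953) stand alone. Scd1 and Scd2 are neighbours with similar coding sequences. In GENCODE M21 transcripts of the same build, 89.6% of 1074 aligned coding positions were identical, and the longest run they shared was 147 bases. A stretch of 207 coding bases around that run is shown because the gene with the highest level and the gene with the largest estimated difference, both described below, meet there; it spans exons 4 and 5 in both genes, and capitals mark the 2 bases that differ. For Scd1 it lies at chr19:44401693-44401835 and chr19:44400311-44400374 on the minus strand, and for Scd2 at chr19:44299672-44299814 and chr19:44301212-44301275 on the plus strand.
Scd1: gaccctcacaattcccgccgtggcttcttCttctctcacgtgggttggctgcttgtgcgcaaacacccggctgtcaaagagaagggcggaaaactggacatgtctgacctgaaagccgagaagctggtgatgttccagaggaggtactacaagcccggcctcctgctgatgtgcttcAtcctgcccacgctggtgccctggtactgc
Scd2: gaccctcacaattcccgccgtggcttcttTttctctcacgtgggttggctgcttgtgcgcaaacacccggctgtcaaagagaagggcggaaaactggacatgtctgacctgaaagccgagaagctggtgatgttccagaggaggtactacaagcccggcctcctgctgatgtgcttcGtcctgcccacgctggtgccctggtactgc
Of the 4733 windows of 100 bases in the Scd1 transcript, 48 or 1.01% occurred unchanged in Scd2. Of its 4783 windows of 50 bases, 145 or 3.03% did, so most windows of these lengths told the genes apart. Over the 8 libraries Scd2 had 222330 reads and Scd1 15599, so the same number of misassigned reads would weigh more on Scd1. No label or header says how the counting treated reads from the shared stretch, and the Scd1 and Scd2 counts carry that uncertainty. Fads1 and Fads2 shared 66.4% of aligned coding positions and no window of 50 bases. The last exons of Srebf1 overlap those of Rai1, on the other strand, by 109 bases or 1.94% of the Srebf1 exon length. Rai1 had 17767 reads and Srebf1 19678 over the 8 libraries, and the labels do not say whether reads were counted by strand.

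RefSeq promoter entries (GRCm38.p6) were found for 7 of the 10 genes, in 10 windows of 250 bases before a transcription start. Scd1, Scd2 and Fads1 had no entry. Both strands were searched for motifs of factors known to act on lipogenic genes. The sterol regulatory element TCACNCCAC, a form of the SREBP site, was in none of the 10 windows and in 1.05% of all 32851 promoter windows of that length, and the E-box CACGTG was in none of the 10 and in 6.02% of all. The CCAAT box, bound by NF-Y, was in 33.9% of all windows. Fasn had 3 matches, of which a pair overlaps on opposite strands, and Srebf1 and Me1 had 1 or none in each of their windows. The GC box GGGCGG, bound by Sp1, was in 32.7% of all windows, and Acly had 4 matches. The windows of Fasn and Acly are shown because these genes are compared below, and of the 10 windows Fasn held the most CCAAT boxes and Acly the most GC boxes; capitals mark the CCAAT box in Fasn (chr11:120824548-120824797, minus strand) and the GC box in Acly (chr11:100528001-100528250, minus strand), in either orientation.
Fasn: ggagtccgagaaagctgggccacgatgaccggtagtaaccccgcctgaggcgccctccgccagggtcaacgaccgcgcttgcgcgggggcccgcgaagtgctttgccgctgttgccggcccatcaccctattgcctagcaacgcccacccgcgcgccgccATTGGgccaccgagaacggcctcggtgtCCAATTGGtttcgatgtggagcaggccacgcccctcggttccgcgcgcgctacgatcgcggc
Acly: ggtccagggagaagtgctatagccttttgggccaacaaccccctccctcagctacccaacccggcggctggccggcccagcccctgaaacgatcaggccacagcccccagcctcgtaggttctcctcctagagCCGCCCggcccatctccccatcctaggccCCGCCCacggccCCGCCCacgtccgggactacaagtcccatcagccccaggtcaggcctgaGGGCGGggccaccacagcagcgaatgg
These matches are letters in a window and do not show binding.

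Reads counted to genes ranged from 17549560 to 22006738 per vehicle library and from 14986793 to 21806141 per OPE library. Principal components were taken of log2 CPM, the reads of a gene scaled to the library's total. The first set OPE 3 apart from all others. On the second, all vehicle libraries (12.8 to 23.2) lay apart from all OPE libraries (-43.9 to 2.77), with OPE 1 farthest out. Gene length was set against log2 CPM relative to each gene's mean over the 8 libraries. In OPE 3 this relative value fell by 0.21 per doubling of gene length, against slopes between -0.03 and 0.10 in the other 7 libraries. The forelimb marker Tbx5 was at 269 to 295 CPM with vehicle and 284 to 321 CPM with OPE, while the hindlimb markers Tbx4 and Pitx1 summed to 27.7 to 32.8 and 25.5 to 30.8 CPM (exact permutation p = 0.0857 and 0.143), and chondrocyte genes such as Sox9 were abundant in all 8 libraries. Across all genes tested, edgeR's quasi-likelihood test with Benjamini-Hochberg adjustment at 0.05 called 74 genes, 0.477%, of which 6 (0.0387%) were higher and 68 (0.438%) lower with OPE.

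Per transcript length, Scd2 was by far the most abundant of the 10. In the authors' deposited FPKM (reads scaled to gene length and to the library's counted total), the vehicle level of Scd2 was 261 ± 9.37 (SD, n = 4), at the 99th percentile of the genes tested, and it was 293 ± 25.6 with OPE. Its relative Scd1 was at 19.2 ± 4.33 FPKM with vehicle. The desaturase known from embryonic tissue outweighed the one known from adult liver and fat in every library, and Scd2 alone took 50.4% to 56.0% of all reads of the 10 genes.

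The next vehicle levels were those of the polyunsaturated desaturases, Fads2 with 72.1 ± 5.69 and Fads1 with 53.1 ± 4.99 FPKM, and of Acly with 52.4 ± 1.88 FPKM. Fads1 and Acly overlapped between libraries. Fasn with 33.6 ± 2.78 and Srebf1 with 32.8 ± 1.70 FPKM could not be ordered either, nor could Scd1 and Elovl6 (16.4 ± 1.54 FPKM). The lowest were Acaca with 11.6 ± 0.539 and Me1 with 11.2 ± 0.359 FPKM, which also overlapped. The rank of Fads2 rests on its deposited length of 1508 bases. With the 3295 exon bases of GENCODE M21 it would be at 33.0 FPKM, below Fads1 with 38.2 FPKM. The overlap of Acaca and Me1 also rests on the deposited lengths, since with M21 lengths Acaca was at 6.48 ± 0.301 and Me1 at 9.55 ± 0.307 FPKM. So does that of Fads1 and Acly. With M21 lengths they were at 38.2 ± 3.58 and 44.0 ± 1.58 FPKM, and their vehicle libraries did not overlap.

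**Figure D1:**
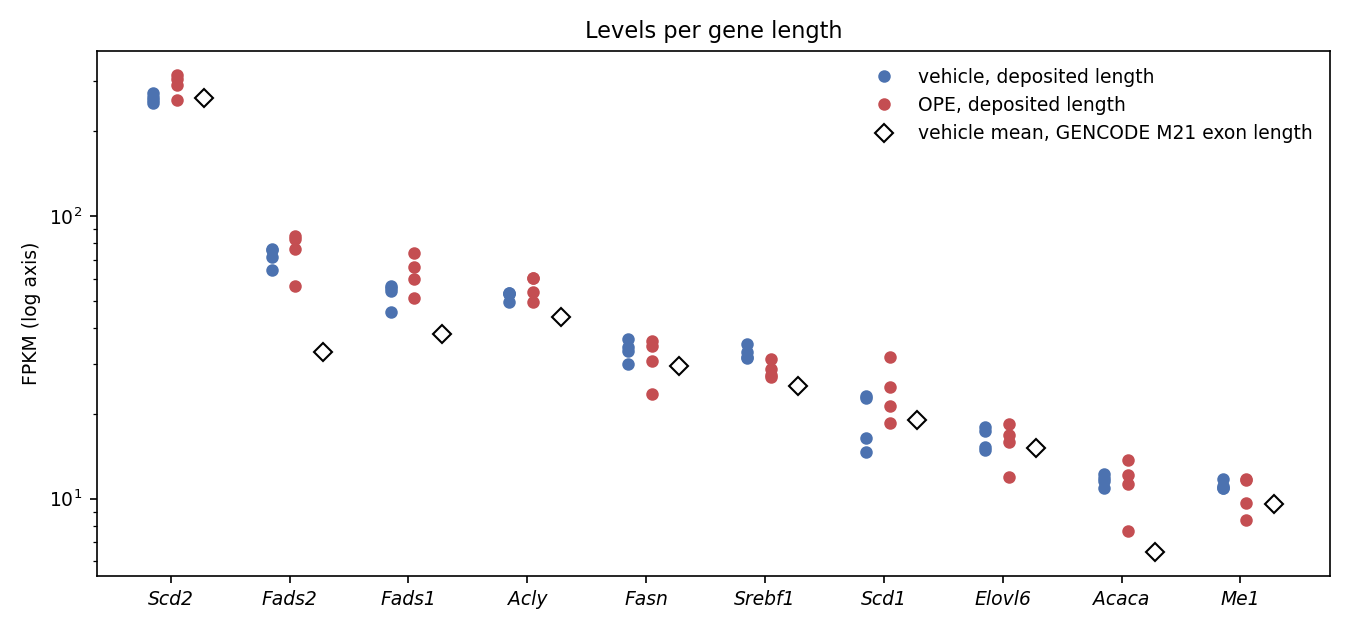
Levels per length of the 10 genes in deposited FPKM (log axis), 1 point per library, vehicle in blue and OPE in red; open diamonds are vehicle means with GENCODE M21 exon lengths. Scd2, with a vehicle mean of 261 FPKM, lies above the other 9 genes in all 8 libraries, and the deposited levels of the rest run from 7.70 to 84.8 FPKM over both groups.

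With OPE, none of the 10 genes passed the threshold in either direction, against the 0.477% of all tested genes that did. At an unadjusted p under 0.05, 1 of the 10 (Fads1) was higher and none was lower, against 5.85% and 7.31% of all genes. DESeq2 and limma-voom also called none, with 2 genes each at an unadjusted p under 0.05. In the authors' deposited table none had an adjusted p under 0.05, and 3 (Scd2, Fads1 and Scd1) had an unadjusted p under 0.05. The estimates divided 5 above and 5 below 0, where 52.8% of all genes tested were above 0, with a median log2 fold change of 0.05, beside a median of 0.01 over all genes. The estimates above 0 belonged to Acly and the 4 desaturases, and those below 0 to Srebf1, Fasn, Acaca, Elovl6 and Me1. In 2 of the 10, Acly and Scd2, every OPE library lay above every vehicle library, as it did in 4.05% of all genes tested (9.49% had no overlap in either direction). No member had all OPE libraries below all vehicle libraries, as 5.44% of all genes did.

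**Figure D2:**
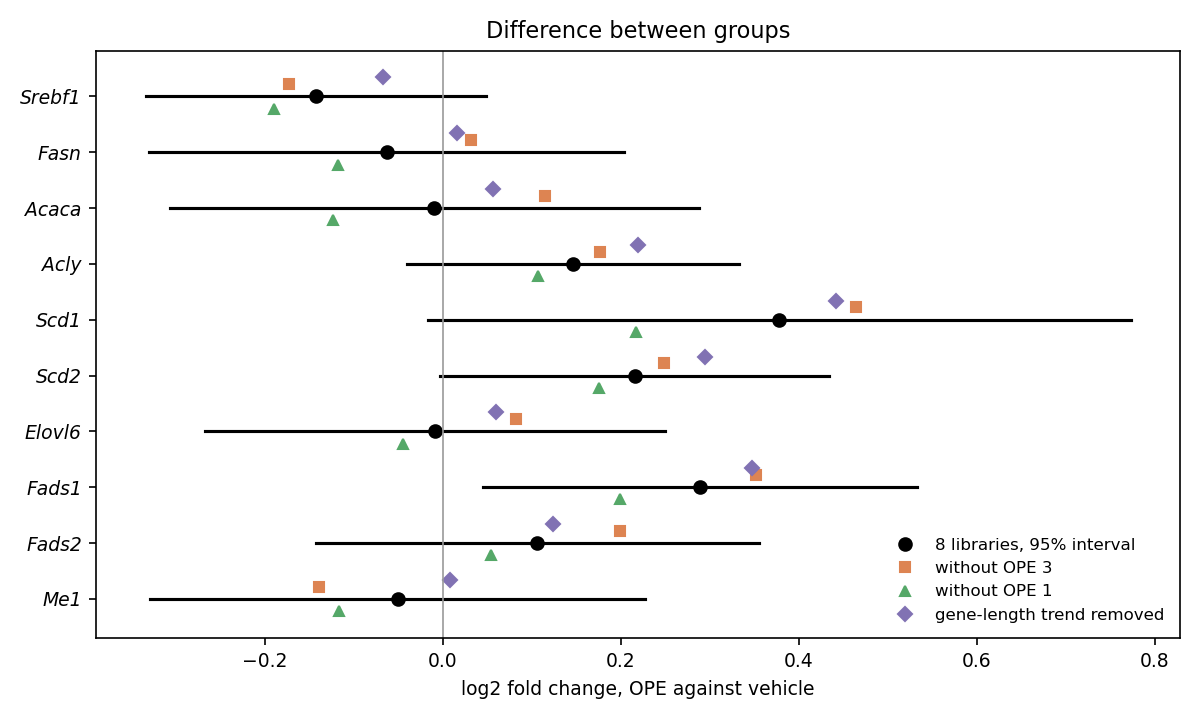
Log2 fold change (OPE against vehicle) of the 10 genes: black dots with 95% intervals from all 8 libraries, orange squares without OPE 3, green triangles without OPE 1, purple diamonds with a gene-length trend removed from each library. The interval of Fads1 runs from 0.04 to 0.53 and leaves out 0, while the intervals of the other 9 genes include 0.

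Srebf1, the regulator, was at 134, 134, 139 and 148 CPM in vehicle 1 to 4 and at 135, 116, 134 and 118 CPM in OPE 1 to 4. The OPE libraries were mostly lower, with 3 of 4 below all vehicle libraries, but OPE 1 lay inside the vehicle range. OPE 3, at 133.5 CPM, was only just below the lowest vehicle library, at 133.7 CPM. The log2 fold change was -0.14 ± 0.09 (SE; 95% interval -0.33 to 0.05; edgeR adjusted p = 0.528).

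Among the enzymes that supply acetyl-CoA and NADPH, Acly and Me1 had estimates of opposite sign. Acly was at 235, 215, 231 and 232 CPM with vehicle and at 269, 238, 237 and 267 CPM with OPE. All 4 OPE libraries lay above all vehicle libraries, though OPE 2 and OPE 3 did so by only a few CPM. The difference was 0.15 ± 0.08 on the log2 scale, an estimated 10.7% (95% interval -0.04 to 0.33 in log2; edgeR adjusted p = 0.505). Me1, which had the fewest reads of the 10 before scaling to length, was at 36.2, 37.7, 35.5 and 35.2 CPM with vehicle and at 38.8, 31.7, 41.3 and 27.6 CPM with OPE. Its OPE libraries fell on both sides of the narrow vehicle range, and the log2 fold change was -0.05 ± 0.13 (edgeR adjusted p = 0.916), or 0.04 without OPE 4.

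The chain-building enzymes showed no detectable difference. Fasn was at 327, 282, 314 and 344 CPM with vehicle and at 333, 294, 242 and 344 CPM with OPE. Only OPE 3 lay outside the vehicle range by more than 1 CPM, on the low side. Its log2 fold change was -0.06 ± 0.12, with a 95% interval of -0.33 to 0.20 (edgeR adjusted p = 0.890). Acaca, which makes the malonyl-CoA that Fasn uses, was at 102 to 114 CPM with vehicle. It ranged more widely with OPE, at 131, 106, 78.9 and 116 CPM, with OPE 1 highest and OPE 3 lowest of all 8 libraries. Its log2 fold change was -0.01 ± 0.14 (95% interval -0.31 to 0.29; edgeR adjusted p = 0.987). Elovl6 had the same low value in OPE 3. It was at 87.7 to 105 CPM with vehicle and at 101, 94.3, 76.4 and 109 CPM with OPE, a log2 fold change of -0.01 ± 0.12 (edgeR adjusted p = 0.986). For these 3 genes the sign of the estimate depended on single libraries. Without OPE 3 the log2 fold changes were 0.03 for Fasn, 0.11 for Acaca and 0.08 for Elovl6. Without vehicle 4 they were 0.0083 for Acaca and 0.014 for Elovl6, and without vehicle 3 it was 0.036 for Elovl6.

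The 4 desaturases all had estimates above 0. Scd2 was at 1393, 1338, 1466 and 1405 CPM with vehicle and at 1737, 1584, 1514 and 1668 CPM with OPE. No OPE library overlapped the vehicle range, and OPE 3 came nearest to it. The log2 fold change was 0.22 ± 0.10, an estimated 16.1%, with a 95% interval of -0.003 to 0.43 (edgeR adjusted p = 0.388). Scd1 was at 69.8, 77.6, 108 and 109 CPM with vehicle and at 154, 102, 96.4 and 120 CPM with OPE. The vehicle libraries lay in a low and a high pair, and OPE 2 and OPE 3 fell between them. Its estimate, 0.38 ± 0.18, was the largest of the 10 and had the largest SE (95% interval -0.02 to 0.77; edgeR adjusted p = 0.402). Without OPE 1, the highest library, it was 0.22, and without vehicle 1, the lowest, 0.27.

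Fads1, which adds the double bond that yields arachidonic acid, was at 157, 184, 193 and 188 CPM with vehicle and at 257, 228, 191 and 206 CPM with OPE. OPE 1, 2 and 4 lay above all vehicle libraries and OPE 3 inside their range. The log2 fold change was 0.29 ± 0.11, an estimated 22.1% (95% interval 0.04 to 0.53 in log2; edgeR adjusted p = 0.290). Fads2, which acts earlier on the same chains, was at 96.0, 106, 113 and 113 CPM with vehicle and at 126, 115, 92.0 and 128 CPM with OPE. Here OPE 3 was the lowest of all 8 libraries and the other OPE libraries lay above the vehicle range. The log2 fold change was 0.11 ± 0.11 (95% interval -0.14 to 0.36; edgeR adjusted p = 0.764). It was 0.20 without OPE 3, and 0.049, 0.054 and 0.055 without OPE 4, OPE 1 or vehicle 1.

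**Figure D3:**
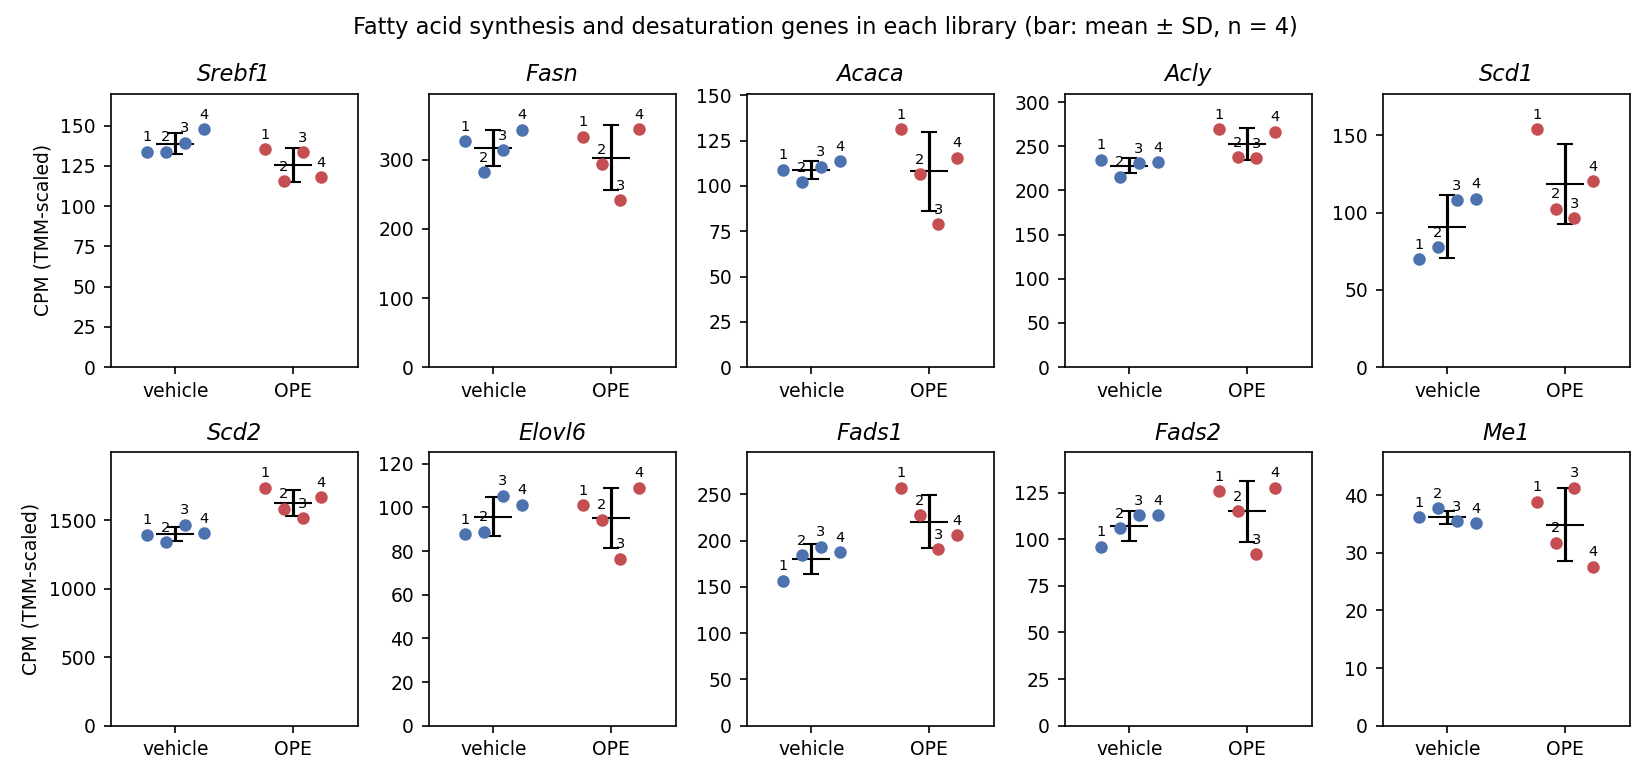
CPM of each of the 10 genes in every library, with the replicate number beside each point and bars for the mean ± SD (n = 4). Groups do not overlap for Acly and Scd2, and OPE 3 is the lowest of the 8 libraries for Fasn, Acaca, Elovl6 and Fads2.

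The OPE libraries differed among themselves in these genes. Relative to the vehicle mean, the median of the 10 log2 values was 0.24 in OPE 1 and 0.19 in OPE 4, with 9 and 8 genes above the vehicle mean. It was 0.02 in OPE 2 and -0.0003 in OPE 3, with 5 genes above in each. In OPE 3, Acaca was lower than the vehicle mean by 0.46, Fasn by 0.39 and Elovl6 by 0.32, while Me1 was 0.19 higher. Together the 10 genes took 0.262% to 0.286% of all counted reads with vehicle and 0.251% to 0.326% with OPE. Leaving out OPE 3 gave a median log2 fold change of 0.15 and 6 of 10 genes at an unadjusted p under 0.05 (Srebf1 lower, and Acly, Scd1, Scd2, Fads1 and Fads2 higher). Without that library 7.94% of all genes were higher and 9.81% lower at this p. None of the 10 genes passed adjustment even then, and Fads1 came nearest (edgeR adjusted p = 0.0676). Leaving out OPE 1 gave none of the 10 at an unadjusted p under 0.05. With a spline trend of gene length removed from every library, again none of the 10 passed, and 9 of 10 estimates were above 0, as were 61.1% of all genes in that fit.

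Ratios of counts between members do not depend on how libraries are scaled. A trend with gene length, as seen in OPE 3, does not cancel in them. Fasn had the longest deposited length of the members, 9587 bases, against 5453 for Scd2, 4836 for Scd1 and 4426 for Acly. The part of that trend in the ratios was not tested. The ratios were formed after the values had been seen, so they are given with no test, and each combines values already shown. The Scd2 to Fasn ratio was 4.26, 4.74, 4.67 and 4.09 in vehicle 1 to 4 and 5.21, 5.39, 6.27 and 4.85 in OPE 1 to 4. The groups did not overlap, and OPE 3, where Fasn was lowest, was the highest. The Acly to Fasn ratio was 0.674 to 0.763 with vehicle and 0.774 to 0.980 with OPE, again without overlap. For Scd1 to Fasn the ranges were 0.213 to 0.343 and 0.349 to 0.462. Ratios to Fasn were thus higher without overlap in 3 of 9 members, and among all other genes tested in 2.14% (lower in 2.57%). In the other 6 members they overlapped, as with 0.330 to 0.361 and 0.327 to 0.394 for Acaca, 0.268 to 0.336 and 0.303 to 0.321 for Elovl6. The Fads1 to Fads2 ratio was 1.63 to 1.74 with vehicle and 2.05, 1.98, 2.08 and 1.61 in OPE 1 to 4. It was high in 3 OPE libraries, and OPE 4 lay just below the vehicle range.

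**Figure D4:**
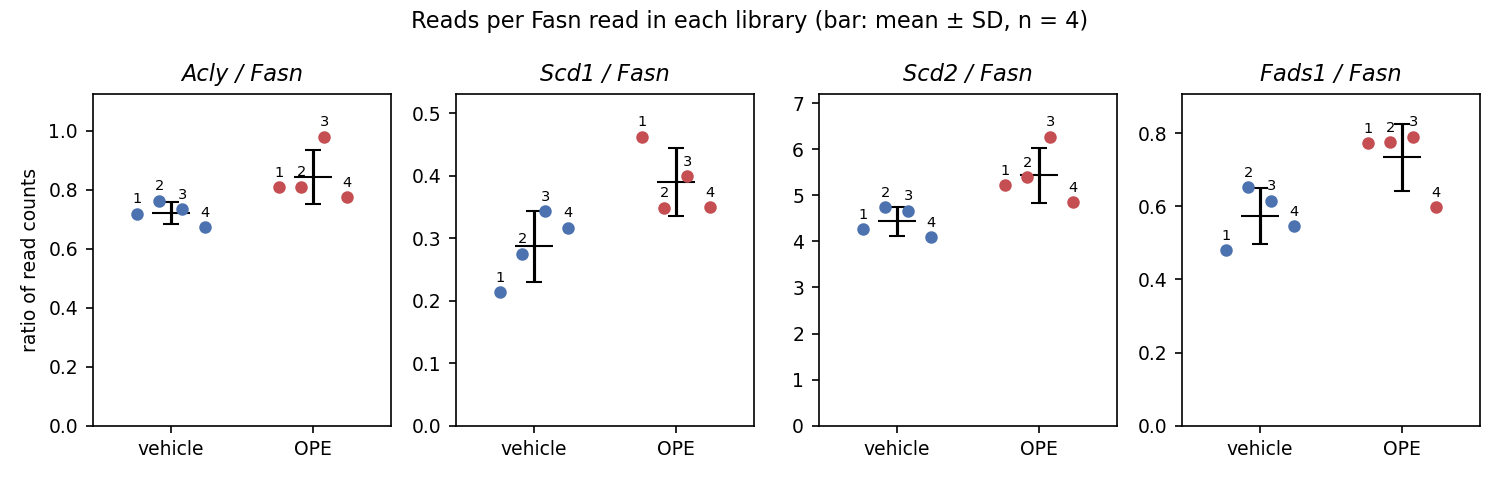
Ratio of the counts of Acly, Scd1, Scd2 and Fads1 to those of Fasn in every library, with replicate numbers and bars for the mean ± SD (n = 4). The OPE libraries lie above all vehicle libraries for Acly, Scd1 and Scd2, and the groups overlap for Fads1, at 0.480 to 0.653 and 0.598 to 0.790.

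The rest of the pathway was described with lists of genes by role. The lists were chosen with earlier results of these data known, and they get counts and medians only. Of 19 other tested regulators, such as the SREBP escort Scap and the carbohydrate-response factor Mlxipl, edgeR called none, with 4 at an unadjusted p under 0.05, and the median log2 fold change was 0.04. Those of smallest p were Insig1, which holds SREBPs in the endoplasmic reticulum and is itself their target, and Srebf2. Insig1 was at 53.8 ± 5.74 CPM with vehicle and 88.6 ± 18.6 CPM with OPE, without overlap, a log2 fold change of 0.72 ± 0.14 (edgeR adjusted p = 0.0535). It passed in 7 of 20 alternatives, DESeq2 among them (adjusted p = 0.000729), where 3.45% of all genes were called. Srebf2 was at 271 ± 15.3 and 356 ± 61.9 CPM, or 0.39 ± 0.12 (edgeR adjusted p = 0.184), beside the estimate of -0.14 for Srebf1. The NF-Y subunit Nfya was at -0.22 ± 0.09 (edgeR adjusted p = 0.339) and the oxysterol receptor LXR-alpha, Nr1h3, at -0.55 ± 0.24 (edgeR adjusted p = 0.361).

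Of 16 other genes of acetyl-CoA and NADPH supply, 1 was called, as were 0.438% of all genes in that direction. Slc13a5, which carries citrate into cells, fell from 8.78 ± 3.59 CPM to 1.60 ± 1.03 CPM (log2 fold change -2.49 ± 0.42, edgeR adjusted p = 0.0388), a call lost in 8 of 20 alternatives. Acly, which cleaves citrate, had no such change. Of 3 further enzymes that make NADH or NADPH, Me2 was at -0.30 ± 0.12, Idh1 at 0.25 ± 0.11 and Nnt at 0.15 ± 0.08 (edgeR adjusted p = 0.300, 0.349 and 0.440).

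Of 16 other tested chain-building genes none was called by edgeR, DESeq2 or limma-voom, with 4 at an unadjusted p under 0.05 in edgeR. In that list 12 were above 0 and the median was 0.11. Hsd17b12 and Tecr, which carry out the reduction steps of elongation, were at 0.23 ± 0.09 and 0.35 ± 0.15 (edgeR adjusted p = 0.309 and 0.361), and the dehydratase Hacd4 and the elongase Elovl2 at -0.41 ± 0.16 and -0.48 ± 0.20 (edgeR adjusted p = 0.294 and 0.322). Of 8 other tested genes of desaturation none was called by these 3 tools, 2 had an unadjusted p under 0.05 in edgeR, and 7 were above 0, also with a median of 0.11. They include Degs1, a desaturase of ceramide synthesis (0.31 ± 0.11, edgeR adjusted p = 0.248), Cyb5r3, which passes electrons to desaturases (-0.20 ± 0.10, edgeR adjusted p = 0.406), and Scd4. Scd4 was near the detection limit, at 1.41 CPM with vehicle and 2.78 CPM with OPE (edgeR adjusted p = 0.313), far below Scd1 and Scd2.

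Downstream of synthesis, edgeR called no gene among 13 of fatty acid activation, 21 of glycerolipid esterification and droplets and 22 of oxidation, with 5, 3 and 2 at an unadjusted p under 0.05. Their medians were 0.09, 0.01 and -0.06. Of the 4 activation genes of smallest p, the acyl-CoA synthetases Acsl3 (0.37 ± 0.09, edgeR adjusted p = 0.0998) and Acsl4 (0.36 ± 0.13, edgeR adjusted p = 0.246) were above 0. Slc27a2, next by p, had a higher estimate of 0.56 ± 0.24 (edgeR adjusted p = 0.337), at 1.63 CPM with vehicle and 2.41 CPM with OPE. Acsl3 passed in 4 of 20 alternatives, including DESeq2 (adjusted p = 0.00573), and Acsl4 in 1. The transporter Slc27a3 and the lipid-binding protein Fabp5 were at -0.28 ± 0.09 and -0.48 ± 0.20 (edgeR adjusted p = 0.218 and 0.336). Among the esterification genes, the acyltransferase Gpat4 was at 0.21 ± 0.08 (edgeR adjusted p = 0.321) and the droplet coat gene Plin4, near the detection limit, at -1.12 ± 0.41 (edgeR adjusted p = 0.271). Cpt1a, which admits fatty acids to mitochondria for oxidation, was at -0.26 ± 0.11 (edgeR adjusted p = 0.332). Among 12 genes listed under AMPK and control of acetyl-CoA carboxylase edgeR called none, with 2 at an unadjusted p under 0.05. DESeq2 called Trib3 and Cop1 (adjusted p = 0.00755 and 0.00454). Trib3, a pseudokinase that in mouse fat recruits the ubiquitin ligase Cop1 to acetyl-CoA carboxylase, was at 11.7 ± 2.48 CPM with vehicle and 48.1 ± 36.6 CPM with OPE, without overlap (edgeR adjusted p = 0.0647). Cop1 was at 0.37 ± 0.09 (edgeR adjusted p = 0.0976). Each of them passed in 3 of 20 alternatives.

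Cholesterol synthesis, the other branch under SREBP control, stood beside these values as follows. All 23 of its genes were above 0 (52.8% of all genes), 16 were higher without overlap between groups (4.05% of all genes), and 2 were called higher by edgeR (0.0387% of all genes). Cyp51 rose by 0.63 ± 0.11 and Msmo1 by 0.95 ± 0.17 on the log2 scale (edgeR adjusted p = 0.0388 for each). These enzymes remove methyl groups from sterol precursors. Hmgcs1 and Sqle, at earlier steps, were at 0.51 ± 0.10 and 0.46 ± 0.10 (edgeR adjusted p = 0.0522 and 0.0660) and passed in 8 and 4 of 20 alternatives. DESeq2 called 12 of the 23 and limma-voom 3. The median of the list was 0.46, against 0.05 for the 10 fatty acid genes. The difference between the lists was not tested, and the calls of Cyp51 and Msmo1 were lost in 7 and 9 of 20 alternatives. Without OPE 1 their adjusted p-values were 0.0552 and 0.0816.

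**Figure D5:**
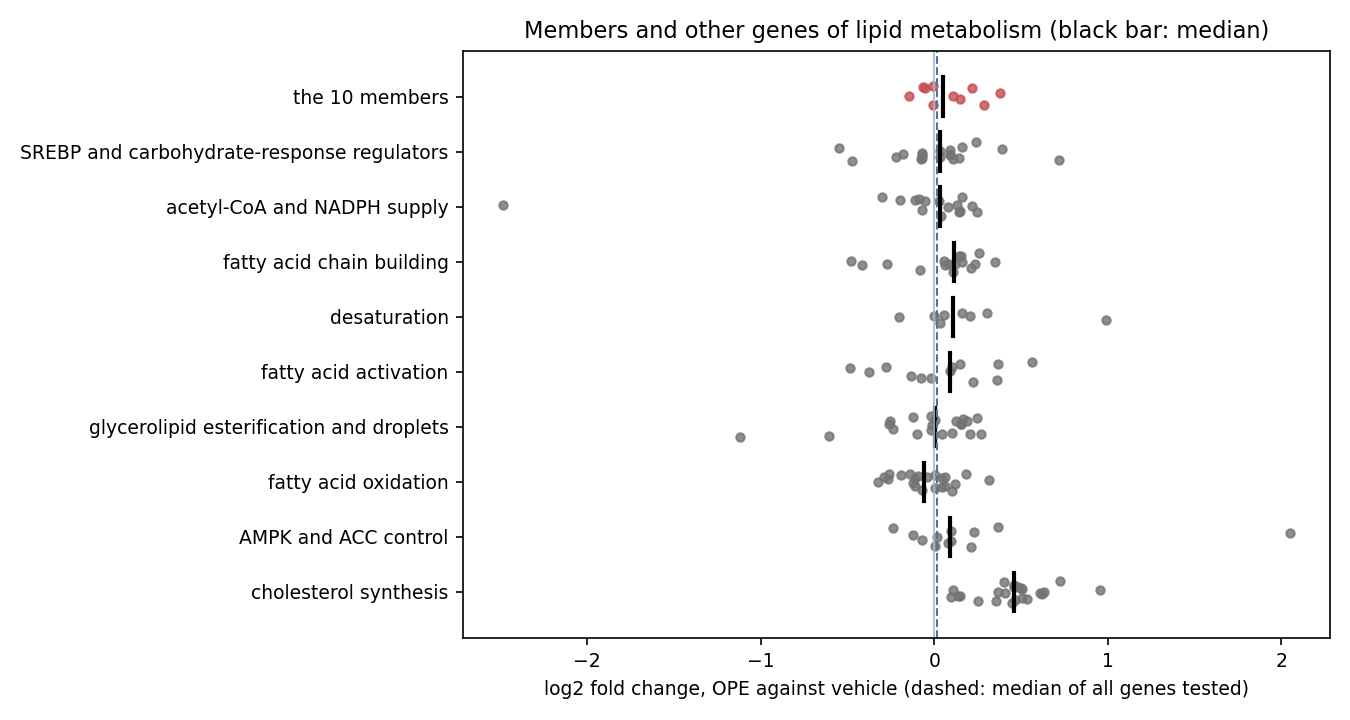
Log2 fold change of every tested gene in 9 lists by role, with the 10 members in a row of their own in red, other genes in grey, a black bar for the median of each list and a dashed line for the median of all genes (0.01). Cholesterol synthesis, with a median of 0.46, is the list in which all genes lie above 0.

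The samples are bulk tissue, in which fewer cells of a type and less RNA per cell cannot be told apart. Adipocytes, a cell type rich in these enzymes, left little signal. Of 11 listed fat markers 6 were analysed here, and Adipoq, Cidec, Lep, Cfd and Adig were not found among the deposited genes. The 6 summed to 24.4 to 35.4 CPM with vehicle and 20.8 to 32.0 CPM with OPE (exact permutation p = 0.229, 2-sided, 70 splits). Most of that sum was Cebpa, with means of 21.5 CPM with vehicle and 20.9 CPM with OPE. Fabp4, Plin1 and Plin4 had lower means with OPE, and Pparg and Retn higher ones. Plin1 had 39 reads and Retn 12 in all 8 libraries together. Of 5 hepatocyte markers 2 were analysed, with summed levels of 1.40 to 2.55 and 0.266 to 0.902 CPM, and 1 of them, Apoa1, was called lower. That sum was mostly Apoa1, which had 184 reads over the 8 libraries and means of 1.95 and 0.422 CPM. The other, Ttr, had 16 reads and went the other way, with means of 0.0702 and 0.156 CPM. Macrophage markers moved with the groups. All 11 were below 0 and 7 were called lower, against 0.438% of all genes, and their sum was 154 to 174 CPM with vehicle and 29.9 to 77.8 CPM with OPE. Endothelial markers summed to 261 to 320 and 126 to 238 CPM, with 7 of 8 below 0 and none called. For macrophage, endothelial and hepatocyte sums the exact permutation p was 0.0286, the smallest that 4 against 4 libraries allow, and 0.105 after adjustment over 11 lists. The part of these shifts in the members' values was not tested. The summed levels of the other lists overlapped between groups: 1472 to 1599 and 1503 to 1722 CPM for limb mesenchyme, 8145 to 9663 and 8132 to 9178 CPM for chondrocytes, 248 to 308 and 159 to 374 CPM for ectoderm, 70.7 to 83.8 and 62.4 to 86.9 CPM for Schwann cells, and 899 to 1322 and 1021 to 2434 CPM for erythroid cells. Their exact permutation p-values were 0.257 or more. OPE 3 held the highest erythroid sum.

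Likeness across the 8 libraries was measured as Pearson's r of log2 CPM against 11160 other genes, as a description of libraries that share depth and length trends. The genes most like each member were Dos for Fads1 (r = 0.99), Itpripl2 for Fasn (0.98), Uvssa for Acaca (0.98), BC048403 for Scd1 (0.98), Gpc1 for Fads2 (0.98), Cdh8 for Scd2 (0.97) and Vkorc1l1 for Elovl6 (0.97). Acly (Rc3h2, 0.96), Me1 (Stx18, 0.95) and Srebf1 (Ank, 0.94) followed. Acaca had 443 genes and Fasn 302 with r above 0.9, against 16 for Scd1 and 2 for Srebf1. No member was the closest gene of another.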

How the data were processed

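Poly-A RNA of the cultured limb buds was made into libraries with random primers, as the labels' protocols state. Tools listed in the submitters' processing notes are DESeq2 (its version written as 2), HTSeq 0.6.1, STAR 2.5 and CASAVA 1.8, with the build mm10. Their roles, the annotation release and the use of strand were not given in the sources used here. A single table was deposited by the authors, holding, per the file headers, raw read counts, FPKM and gene lengths, the authors' log2 fold change and their p-value columns (unadjusted and adjusted). A further deposited signal column holds counts scaled by a constant of each library, as checked on the values; it was not used. No row lacked a gene name. The FPKM were used for levels only.

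Groups came from the titles. The deposited counts went into edgeR 4.0.16 under R 4.3.3 (TMM, filterByExpr, robust quasi-likelihood fit, 2-sided, group as the only term), and p-values were adjusted over all 15517 genes. CPM use TMM-scaled totals; SE is the size of the log2 fold change over the square root of F. The common dispersion was 0.0259. In simulated data of this design with 15344 genes, 28.4% of genes changed 1.5-fold and 78.8% of those changed 2-fold were called, and 12 of 141 calls were unchanged genes. Replicate libraries differed by more than sampling noise in every pair (lowest ratio of chi-square to degrees of freedom 4.80), so no pair looked like 1 library sequenced again. This ratio cannot tell separate tissue from separate preparations of the same tissue.

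The members, lists, tests and the rule for named genes were chosen with earlier results of these data known. The rule took all members, of each list every called gene or up to 4 of smallest p, and for each member the gene of highest r with a mean of at least 5 CPM. For summed marker levels, exact 2-sided permutation p-values came from all 70 ways to assign the libraries to groups. Alternatives were other scaling (DESeq2 1.42.0 size factors, library totals), other filters, DESeq2, limma-voom (limma 3.58.1), other edgeR fits, a replicate block, a gene-length spline, and leaving out libraries; 2 further ones, the spline with the block and GENCODE M21 exon lengths, were chosen after seeing the data.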

Additional observations from a re-analysis of the deposited data

How the results depend on the processing

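None of the 10 genes passed the threshold in any of 20 alternatives, with adjusted p-values between 0.0676 and 0.998. Acly, Scd1, Scd2, Fads1 and Fads2 stayed above 0 and Srebf1 below 0 in all 20. With the gene-length trend removed the log2 fold changes reversed to 0.016 for Fasn, 0.057 for Acaca, 0.059 for Elovl6 and 0.0076 for Me1, and with the replicate block added to 0.019, 0.059 and 0.066 for the first 3. Without both OPE 1 and OPE 3 they were 0.012 for Fasn, 0.030 for Acaca and 0.087 for Elovl6. Leaving out single libraries gave -0.13 to 0.032 for Fasn, -0.12 to 0.11 for Acaca, -0.085 to 0.082 for Elovl6, -0.14 to 0.040 for Me1 and -0.068 to 0.32 for Cyb5a; for the log2 ratio of summed Schwann cell markers it gave -0.15 to 0.015, and for erythroid markers -0.029 to 0.47, and without both OPE 1 and OPE 3 these were 0.022 and -0.011. The number of all genes called was 74, and 131 with library totals, 136 without a filter, 536 with DESeq2, 112 with the newer edgeR method, 322 with the length trend removed, 261 with that and the block, and 7 to 308 with a library left out (7 without vehicle 2 or vehicle 4, 8 without vehicle 1, 12 without OPE 2, 19 without vehicle 3, 178 without OPE 4 and 308 without OPE 3). The cause was not tested. With GENCODE M21 exon lengths the vehicle levels were 25.0 FPKM for Srebf1, 29.4 for Fasn, 6.48 for Acaca, 44.0 for Acly, 38.2 for Fads1, 33.0 for Fads2 and 9.55 for Me1. After each gene's group mean was subtracted, same-numbered libraries correlated at 0.31, 0.08, 0.01 and 0.09 for replicates 1 to 4. By this measure the OPE library most like vehicle 1, 2, 3 and 4 was OPE 1, OPE 3, OPE 4 and OPE 4. The numbers were not taken as pairs. The block alone gave 62 calls and no call among the 10 genes. Depth limits genes of few reads, such as Scd4 with 310 reads over 8 libraries.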
